A study of Mus musculus with 20 samples.

Results

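The glial and progenitor intermediate filament genes Gfap, Vim, Nes and Synm, matched by gene symbol, make up 4 of the 16927 genes listed in the RNA sequencing table of adult mouse spinal cord neural stem cells. Filament transcripts were compared between cells with and without YAP1 in 2 culture conditions. Proliferating cells were neurospheres grown for 7 days in DMEM-F12 with N2 and B27 supplements plus heparin, EGF and FGF2, and differentiating cells were collected after 5 days of differentiation. The YAP1 KO groups came from a mouse line in which exon 3 of Yap1 can be removed by Cre recombinase, delivered to the cells in culture by an adenovirus with the CMV promoter. The labels describe this infection for every sample alike, so whether WT cells carried the allele or received the virus is not stated, nor are strain, age, sex and number of animals.

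The 4 groups were WT proliferation, YAP1 KO proliferation, WT differentiation and YAP1 KO differentiation, with 2 libraries analysed in each, replicates 7 and 8. Nothing in the labels says that replicates came from separate animals or cultures, so p-values measure the spread between these libraries, which may be technical. Totals ran from 18075595 to 18940983 estimated counts per library. Yap1 itself stood in proliferation at 170.5 and 150.4 CPM (counts scaled to the size of the library) in WT and at 27.0 and 32.7 CPM in YAP1 KO cells. The differentiating WT libraries had 106.8 and 93.7 CPM, and the YAP1 KO ones 22.6 and 27.8 CPM. YAP1 KO cells thus held 18.6% of the WT level in proliferation (edgeR adjusted p = 0.0322) and 25.1% in differentiation (edgeR adjusted p = 0.106), counted over the whole gene and not over the removable exon. The labelled cell type was checked against marker genes. Fabp7, Sox2 and the other neural progenitor markers had counts in every group, with summed levels of 2226 to 4116 CPM per library. That sum includes Nes, a member, at 171.8 to 1559 CPM per library. Markers of microglia (0.85 to 2.75 CPM summed), endothelium (0.341 to 2.91 CPM) and pericytes or fibroblasts (1.71 to 5.89 CPM) were near 0, and the leukocyte gene Ptprc had no count in any group. Oligodendrocyte precursor markers summed to 2011 to 5525 CPM and neuronal markers, mostly Map2, to 1094 to 2124 CPM. Oligodendrocyte markers summed to 95.15 to 554.8 CPM.

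Intermediate filaments are rope-like polymers of the cytoskeleton whose subunits differ between cell types. In the nervous system, vimentin and nestin fill the processes of neural stem and progenitor cells, and nestin cannot form filaments alone but copolymerises with vimentin. Glial fibrillary acidic protein (GFAP) is the main filament subunit of astrocytes and is produced in larger amounts when astrocytes react to injury. Synemin is a large subunit that joins vimentin, desmin or GFAP filaments and links them to other parts of the cell. Transcription of Gfap is known to respond to STAT3 and to nuclear factor I (NFI) proteins, and that of Nes to SOX and POU proteins acting on an enhancer within the gene.

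Gfap (gene ID 14580) lies on the minus strand of chromosome 11 at 102887336 to 102897200, Vim (22352) on the plus strand of chromosome 2 at 13574311 to 13582826, and Nes (18008) on the plus strand of chromosome 3 at 87971093 to 87980451, in the GRCm38 positions of the deposited table. Synm (233335) is listed on chromosome 7 at 67730161 to 67760173. The table puts Synm on the plus strand, while RefSeq has it on the minus strand, from 67730161 to 67759742. The plus-strand gene Ttc23 spans the Synm locus in GENCODE M21 and was measured at group means of 20.3 to 22.9 CPM, against 1.94 to 3.19 CPM for Synm. No source used here says if reads were counted by strand, so Synm values are uncertain.

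The promoter windows of the 3 abundant members held different short letter matches. These were a run matching the STAT half-site pair in Gfap, a TATA box and CCAAT boxes in Vim, and GC boxes in Nes. Whether any of these matches is used was not tested. Each window holds 250 bases before and 50 after the RefSeq start (GRCm38.p6), written 5′ to 3′ on the gene's strand, with the matched letters in capitals. Gfap is chr11:102897151-102897450 (minus strand), Vim is chr2:13574061-13574360 (plus strand) and Nes is chr3:87970843-87971142 (plus strand).
Gfap: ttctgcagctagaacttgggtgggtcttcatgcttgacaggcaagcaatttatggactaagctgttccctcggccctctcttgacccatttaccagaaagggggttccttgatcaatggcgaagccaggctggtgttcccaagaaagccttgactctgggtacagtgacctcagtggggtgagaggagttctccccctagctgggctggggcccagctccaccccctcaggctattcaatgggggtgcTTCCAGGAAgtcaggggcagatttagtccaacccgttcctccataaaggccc
Vim: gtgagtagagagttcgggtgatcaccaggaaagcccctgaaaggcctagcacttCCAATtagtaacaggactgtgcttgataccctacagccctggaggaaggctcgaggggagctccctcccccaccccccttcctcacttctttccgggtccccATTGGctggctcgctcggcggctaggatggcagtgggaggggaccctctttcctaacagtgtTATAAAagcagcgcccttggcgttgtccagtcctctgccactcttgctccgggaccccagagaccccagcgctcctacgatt
Nes: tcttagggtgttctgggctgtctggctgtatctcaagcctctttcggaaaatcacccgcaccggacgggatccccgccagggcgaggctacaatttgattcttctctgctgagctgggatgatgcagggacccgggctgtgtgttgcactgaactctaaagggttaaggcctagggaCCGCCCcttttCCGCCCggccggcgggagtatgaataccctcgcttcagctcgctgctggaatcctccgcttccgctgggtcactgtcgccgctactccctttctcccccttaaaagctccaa
Both strands were searched for the TATA box as TATAAA, for the box named by its letters CCAAT, for the GC box as GGGCGG and for the site of TEAD proteins, the DNA-binding partners of YAP1, as GGAATG. The STAT site was searched as TTCNNNGAA, and the NFI site as TGGC and GCCA with 5 free letters between them. None of these 6 motifs overlapped another in the 3 windows shown. The Gfap window held 1 STAT match, which starts at -2 from the RefSeq start, and 8.29% of 32817 RefSeq promoter windows of this length hold one. The Vim window held TATAAA at -32, as 13.6% of windows do, and the CCAAT box at -196 and, reversed, at -94, as 37.4% do. The Nes window held reversed GC boxes at -73 and -62, as 35.6% of windows do. The Synm window, not shown, held 1 reversed CCAAT box at -78. No GGAATG or NFI match lay in any of the 4 windows, and 14.7% and 0.808% of all windows hold one. That absence describes these letters in these windows and nothing further away.

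Levels were compared between genes in TPM, the authors' values scaled by transcript length and library. In proliferation, Vim stood first of the 4 in every library, followed by Nes, then Synm, then Gfap. Vim stood at 1985 and 2722 TPM in WT and at 1666 and 2317 TPM in YAP1 KO neurospheres, among the 84 highest of all listed genes in each of these libraries. Nes stood at 492.0 and 455.4 TPM in WT and at 419.1 and 374.7 TPM in YAP1 KO neurospheres. Synm (0.51 to 0.73 TPM) and Gfap (0.24 to 0.43 TPM) were close to the lower limit of what these libraries could count. The order of Synm above Gfap held in every proliferating library. It is read from 6 to 10 Gfap counts and 32 to 46 Synm counts per library.

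In differentiation, Gfap took the lead by TPM in WT and came second in YAP1 KO cultures. Its place in YAP1 KO replicate 8 changes with the transcript lengths used. In WT differentiation Gfap stood at 2382 and 2122 TPM, places 32 and 39 among all listed genes. In YAP1 KO differentiation it stood at 353.8 and 1100 TPM, places 457 and 127. Vim stood at 1970 and 1955 TPM in WT and at 1427 and 1406 TPM in YAP1 KO differentiation. Nes had moved to places 2502 to 3088, with 58.6 to 73.0 TPM across the 4 differentiating libraries. Synm, at 0.58 to 1.03 TPM, was now the lowest of the 4. In WT differentiation the ratio of Gfap to Vim was 1.21 and 1.09, close to equal, and in YAP1 KO differentiation it was 0.248 and 0.782.

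**Figure D1:**
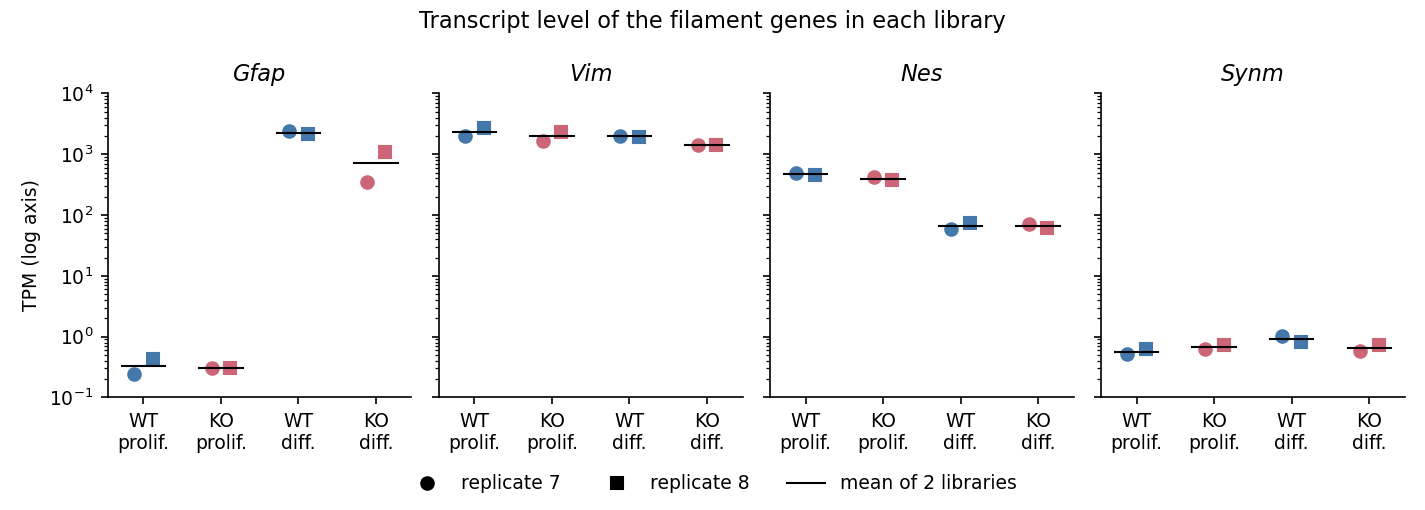
TPM (log axis) of Gfap, Vim, Nes and Synm in each of the 8 libraries, circles for replicate 7 and squares for replicate 8, with a line at the mean of the 2 libraries (blue WT, red YAP1 KO). Gfap lies under 1 TPM in all proliferating libraries and above 300 TPM in all differentiating ones, Nes drops from 374.7 or more to 73.0 or less, and Vim stays between 1406 and 2722 TPM.

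The make-up of the filament transcript pool, the summed TPM of the 4 genes, went from vimentin with nestin to vimentin with GFAP. In WT proliferation Vim supplied 80.1% and 85.6% of the pool and Nes 19.9% and 14.3%, and in YAP1 KO proliferation Vim supplied 79.9% and 86.0% and Nes 20.1% and 13.9%. In WT differentiation Gfap supplied 54.0% and 51.1% and Nes 1.33% and 1.76%. In YAP1 KO differentiation Gfap supplied 19.1% in replicate 7 and 42.8% in replicate 8, Vim 77.0% and 54.7%, and Nes 3.87% and 2.42%. The summed pool was 4412 and 4151 TPM in WT differentiation and 1854 and 2569 TPM in YAP1 KO differentiation, against 2086 to 3178 TPM in proliferation. With transcript lengths from GENCODE M21 in place of TPM, Gfap took 58.5% and Vim 39.7% of the WT differentiation pool on average. On that scale YAP1 KO differentiation had Gfap at 23% and 48.7% and Vim at 72.1% and 48.5%. Gfap and Vim were thus nearly level in YAP1 KO replicate 8 by these lengths. These shares were not tested. The YAP1 KO libraries of differentiation lay below both WT ones in the Gfap share and in the summed pool.

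**Figure D2:**
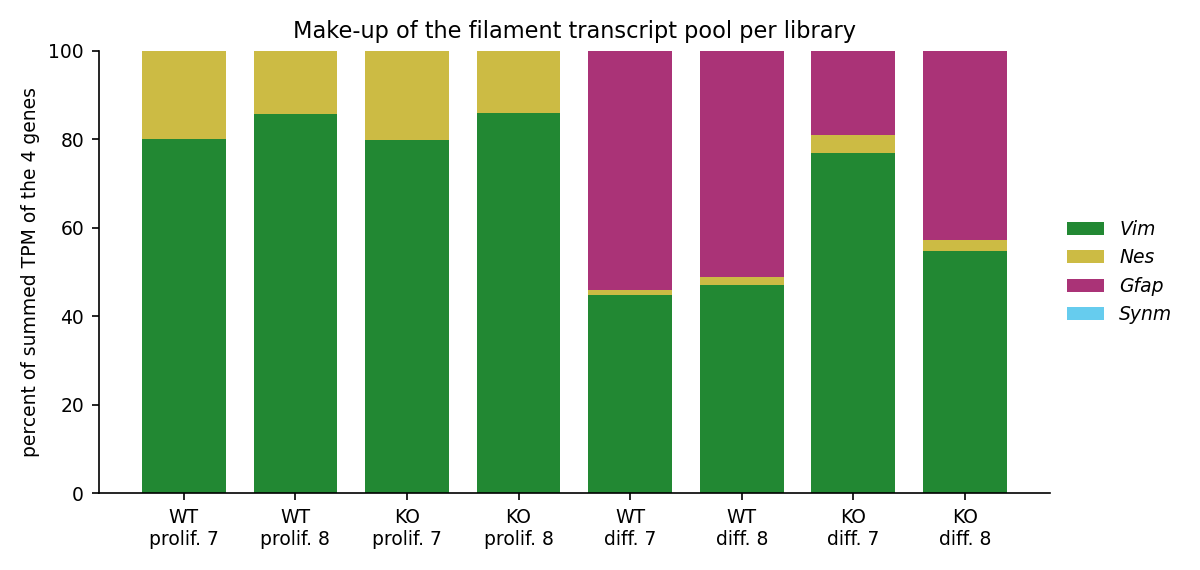
Percent of the summed TPM of the 4 genes supplied by Vim, Nes, Gfap and Synm in each library, each bar adding to 100%. Nes (14 to 20% in proliferation) gives way to Gfap in differentiation, with 54.0% and 51.1% in WT and 19.1% and 42.8% in YAP1 KO, and Synm is too small to be seen.

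Differentiation against proliferation asked which filament genes accompany the change of state, in each genotype. Of the 4 members, 1 rose (Gfap) and 1 fell (Nes) in both genotypes by edgeR's quasi-likelihood test at an adjusted p under 0.05. Changes were common in this comparison: 27.0% of 13046 tested genes were called higher and 28.3% lower in WT, and 25.1% and 26.7% in YAP1 KO cells. Gfap had the largest fitted rise of all 13046 tested genes in both genotypes. That place rests on 6 to 10 Gfap counts per proliferating library. Gfap passed the filter on low counts through its differentiating libraries, and it was chosen with earlier results of these data known. In bulk RNA, more cells of a type and more RNA per cell cannot be told apart.

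Gfap went from 6 and 10 estimated counts in WT proliferation to 52011 and 46680 in WT differentiation. The YAP1 KO libraries went from 7 and 7 counts to 7883 and 23898. The groups were far from overlapping, and every differentiating library was above every proliferating one. On the normalised scale the means were 0.425 ± 0.151 CPM (SD, n = 2) and 2711 ± 293 CPM in WT. The log2 fold change was 12.62 (SE 0.754, 95% interval 10.80 to 14.43) in WT, with an edgeR adjusted p = 6.56e-05. Without YAP1 it was 11.12 (SE 0.731, interval 9.36 to 12.88), with an edgeR adjusted p = 0.000102. The size of these folds rests on the few proliferation counts: the ratio of scaled summed counts was 6270 in WT with a 95% counting interval of 3860 to 11000, and 2260 in YAP1 KO cells with an interval of 1350 to 4130. These intervals cover counting error only. In the authors' deposited table the log2 changes of Gfap are 12.6 (q = 6.67e-220) and 11.2 (q = 8.52e-76).

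Nes moved the other way. WT libraries held 1559 and 1345 CPM of Nes in proliferation and 171.8 and 205.3 CPM in differentiation. Among YAP1 KO libraries it had 1269 and 1095 CPM in proliferation and at 218.0 and 172.1 CPM in differentiation. No proliferating library overlapped a differentiating one. Nes fell by 2.95 on the log2 scale in WT (SE 0.184, edgeR adjusted p = 6.64e-05), leaving 13.0% of the proliferation level. In YAP1 KO cells it fell by 2.60 (SE 0.181, edgeR adjusted p = 0.000109), leaving 16.5%. The transcript was still counted 3061 to 3828 times per differentiating library, so nestin RNA was reduced and not lost.

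Vim, the most abundant member in proliferation, moved little. It stood at 1700 and 2169 CPM in WT proliferation and at 1553 and 1487 CPM in WT differentiation. Without YAP1 it stood at 1364 and 1835 CPM in proliferation and at 1165 and 1055 CPM in differentiation. The differentiating libraries lay below the proliferating ones of the same genotype, which held for 40.6% of tested genes in WT and 38.1% in YAP1 KO cells. The log2 difference was -0.35 in WT (SE 0.186, 95% interval -0.79 to 0.10, edgeR adjusted p = 0.155). It was -0.53 in YAP1 KO cells (SE 0.186, interval -0.97 to -0.08), just short of the threshold with an edgeR adjusted p = 0.0519. That value passed under DESeq2 (adjusted p = 0.0173) and without YAP1 KO proliferation replicate 7 (log2 difference -0.73, edgeR adjusted p = 0.0335), and shrank to -0.29 without replicate 8 of that group (edgeR adjusted p = 0.293). In the authors' deposited table the YAP1 KO value is -0.516 with q = 0.0449.

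Synm was counted 32 to 63 times per library and did not pass the test. It stood at 1.69 and 2.18 CPM in WT proliferation and at 3.54 and 2.84 CPM in WT differentiation, groups that did not overlap. In that comparison 40.6% of tested genes were higher without overlap. In YAP1 KO cells Synm stood at 2.29 and 2.49 CPM in proliferation and at 2.11 and 2.57 CPM in differentiation, groups that overlapped. The log2 difference was 0.72 in WT (SE 0.333, 95% interval -0.08 to 1.52, edgeR adjusted p = 0.110) and -0.03 in YAP1 KO cells (SE 0.333, interval -0.83 to 0.76, edgeR adjusted p = 0.941).

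**Figure D3:**
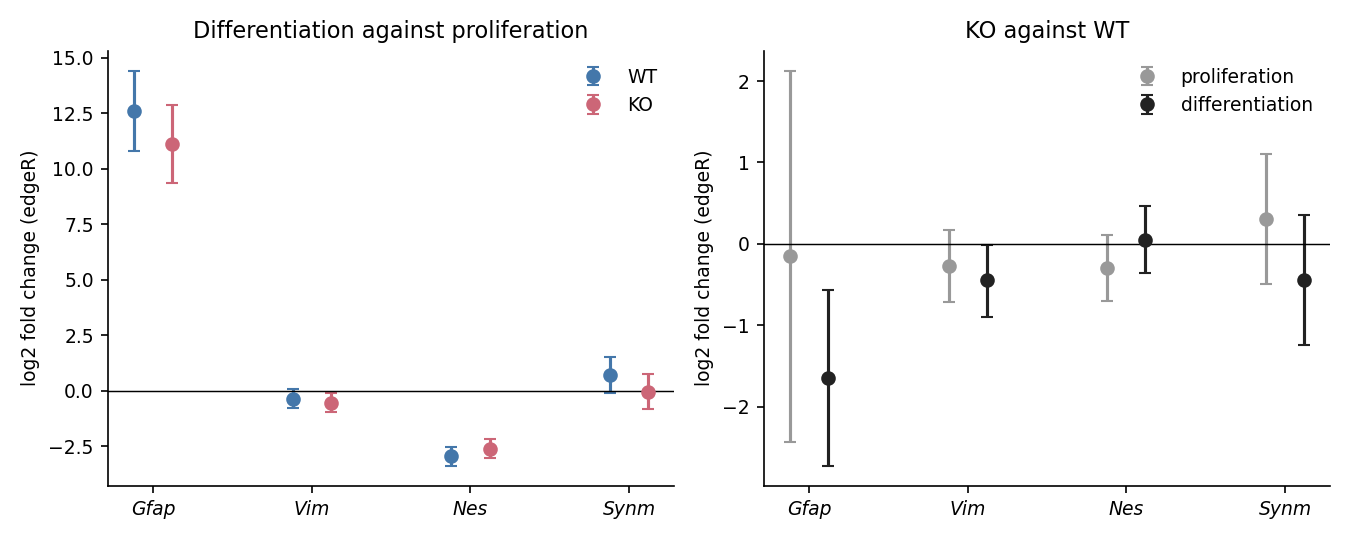
edgeR log2 fold changes of the 4 genes with 95% intervals, on the left for differentiation against proliferation (blue WT, red YAP1 KO) and on the right for YAP1 KO against WT (grey proliferation, black differentiation); the vertical scales differ. Gfap (12.62 and 11.12) and Nes (-2.95 and -2.60) lie far from 0 on the left, and on the right the Gfap value of -1.65 in differentiation is the largest with a wide interval.

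YAP1 KO against WT asked whether filament genes depend on YAP1 in each condition. No member passed in either condition by edgeR. The same test called 0 of 13046 genes higher (0%) and 1 lower, Yap1 itself (0.00767%), in proliferation, and 0 in either direction (0%) in differentiation. At an unadjusted p under 0.05 it had 186 genes higher and 108 lower in proliferation, and 244 higher and 378 lower in differentiation. DESeq2 called 6 higher and 5 lower in proliferation and 4 higher and 34 lower (0.289%) in differentiation, and 1 of these 34 was Gfap.

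Gfap was lower without YAP1 in both differentiating libraries, but by unequal amounts. It stood at 2918 and 2503 CPM in WT differentiation and at 448.6 and 1279 CPM in YAP1 KO differentiation. Both YAP1 KO libraries lay below both WT libraries. The means were 2711 ± 293 CPM and 864 ± 587 CPM (SD, n = 2), so YAP1 KO cultures held 31.9% of the WT level. The YAP1 KO replicates differed from each other by 1.51 on the log2 scale, more than in 95.2% of tested genes (median 0.263). The log2 difference was -1.65 (SE 0.448, 95% interval -2.73 to -0.57, edgeR adjusted p = 0.934). DESeq2 gave the same size with an adjusted p = 0.0322, while the authors' deposited table gives -1.65 with q = 1. Without YAP1 KO differentiation replicate 8 the log2 difference was -2.59 (edgeR adjusted p = 0.202), and without replicate 7 it was -1.08 (edgeR adjusted p = 0.996). In proliferation the Gfap counts were 6 and 10 in WT and 7 and 7 in YAP1 KO neurospheres, which overlapped. The ratio of scaled summed counts there was 0.898 with a 95% counting interval of 0.406 to 1.96. That interval covers counting error only. The edgeR log2 difference was -0.15 (SE 0.951, 95% interval -2.44 to 2.13). No difference was detected, and changes within this wider edgeR interval could not be told apart with these libraries.

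Vim was lower without YAP1 in both conditions by values that did not pass. In differentiation the WT libraries stood at 1553 and 1487 CPM and the YAP1 KO libraries at 1165 and 1055 CPM, without overlap, at 73.0% of the WT level. The log2 difference was -0.45 (SE 0.186, 95% interval -0.90 to -0.01, edgeR adjusted p = 0.934). In proliferation the groups overlapped and the log2 difference was -0.27 (interval -0.72 to 0.17, edgeR adjusted p = 1). Averaged over both conditions the Vim difference was -0.36 (SE 0.132, interval -0.68 to -0.05, edgeR adjusted p = 1).

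Nes stood at 1559 and 1345 CPM in WT and at 1269 and 1095 CPM in YAP1 KO neurospheres, without overlap, a log2 difference of -0.30 (95% interval -0.70 to 0.11, edgeR adjusted p = 1). In differentiation its groups overlapped, at 171.8 and 205.3 CPM against 218.0 and 172.1 CPM, with a log2 difference of 0.05 (interval -0.36 to 0.46, edgeR adjusted p = 0.996). Synm did not overlap between genotypes in either condition, higher without YAP1 in proliferation (log2 difference 0.30, interval -0.50 to 1.10, edgeR adjusted p = 1) and lower in differentiation (-0.45, interval -1.24 to 0.35, edgeR adjusted p = 0.958). Groups without overlap were thus found for Nes (lower) and Synm (higher) in proliferation and for Gfap, Vim and Synm (all lower) in differentiation. In proliferation 15.6% of tested genes were lower and 14.7% higher without overlap, and in differentiation 15.6% and 15.9%.

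The difference between the KO effects of both conditions was tested directly. It was -1.50 on the log2 scale for Gfap (SE 1.08, 95% interval -4.09 to 1.09, edgeR adjusted p = 0.981), -0.18 for Vim, 0.35 for Nes and -0.75 for Synm, and none passed. No tested gene passed this test by edgeR (0%), while 209 genes were higher and 349 lower with p under 0.05 before adjustment, and DESeq2 called 4. A KO effect on Gfap that depends on the condition was therefore not shown, nor was its absence.

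Genes that work with these filaments were described from lists chosen with earlier results of these data known. Of 26 other intermediate filament genes, 19 are in the table and 10 could be tested. The 9 untested ones, among them the desmin gene Des, the neurofilament gene Nefl and the simple epithelial keratin gene Krt8, had at most 6 counts in any library. By edgeR, 2 of the 10 rose and 3 fell in WT differentiation, and 3 rose and 3 fell in YAP1 KO differentiation. Of all tested genes, 27.0% rose and 28.3% fell in WT and 25.1% and 26.7% in YAP1 KO cells, so the counts for these filament genes lie near that background. Those that fell were the nuclear lamina genes Lmnb1 (log2 change -3.40 in WT and -2.95 in YAP1 KO) and Lmnb2 (-2.03 and -1.94) and the filament family gene Iffo1 (-1.07 and -1.07). Lmnb1 stood at 481.9 and 452.9 CPM in WT proliferation and at 42.4 and 46.1 CPM in WT differentiation, and in YAP1 KO cells at 424.9 and 444.5 CPM and then 52.1 and 60.3 CPM. Lmna, which encodes the A-type lamins, was not called in either genotype, at 29.8 to 54.0 CPM across the 8 libraries.

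Among genes that link or modify intermediate filaments, 14 of 18 were tested, and 7 rose and 4 fell in WT and 5 rose and 2 fell in YAP1 KO differentiation, against 27.0% and 28.3% of all tested genes in WT and 25.1% and 26.7% in YAP1 KO cells. Plec, which encodes the linker plectin, rose by 2.90 on the log2 scale in WT and 2.16 in YAP1 KO cells. It stood at 10.3 and 9.51 CPM in WT proliferation and at 75.4 and 72.4 CPM in WT differentiation, and in YAP1 KO cells at 15.4 and 8.77 CPM and then 47.5 and 60.9 CPM. Padi2, an enzyme that citrullinates GFAP and vimentin, stood at 0.371 and 1.49 CPM in WT proliferation and at 131.7 and 230.9 CPM in WT differentiation. In YAP1 KO cells Padi2 rose by 6.59 on the log2 scale, from 0.546 and 1.57 CPM to 63.0 and 142.3 CPM. Plk1 and Aurkb, mitotic kinases that phosphorylate vimentin, both fell in both genotypes, as did 11 of 11 proliferation markers (median log2 changes -7.59 and -8.15). Their part in the filament changes was not tested.

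Of 24 genes known as inputs to Gfap or Nes transcription, 16 rose and 2 fell in WT and 14 rose and 2 fell in YAP1 KO differentiation, with median log2 changes of 0.70 and 0.53 against 0.01 over all tested genes in both. The shares of all tested genes that rose were 27.0% and 25.1%, and those that fell were 28.3% and 26.7%. Sox2, a driver of the Nes enhancer, rose from 166.2 and 178.3 CPM to 662.6 and 572.0 CPM in WT while Nes fell. In YAP1 KO cells Sox2 rose from 182.4 and 179.0 CPM to 588.7 and 487.9 CPM. Jak1, a kinase upstream of STAT3, rose by 1.39 and 1.40 on the log2 scale in WT and YAP1 KO cells. Cntfr, a receptor subunit for ciliary neurotrophic factor, rose by 2.83 and 2.39. None of the 24 was called between genotypes by edgeR, where 0 to 0.00767% of all genes were. Osmr, which encodes the oncostatin M receptor, stood at 19.3 and 35.8 CPM in WT differentiation and at 4.61 and 13.8 CPM in YAP1 KO differentiation, a log2 difference of -1.58 (edgeR adjusted p = 0.934). Il6st, its partner chain gp130, stood at 330.3 and 220.9 CPM against 192.7 and 185.5 CPM, and Nfia, an NFI factor, at 340.3 and 299.4 CPM against 242.6 and 246.4 CPM. These 3 had the smallest p of the list, and none passed. Over the 24 genes, 7 were lower and 4 higher without YAP1 with no overlap between genotypes, against 15.6% and 15.9% of all tested genes.

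Astrocyte markers other than the 4 filament genes rose with Gfap. Of 17 tested, 16 rose and 0 fell in each genotype, where 27.0% of all tested genes rose in WT and 25.1% in YAP1 KO cells, with median log2 changes of 3.69 in WT and 3.67 in YAP1 KO cells. Aldoc, a glycolytic enzyme typical of astrocytes, stood at 336.9 to 529.9 CPM in proliferation and at 3719 to 4584 CPM in differentiation. The summed level of the whole list of 18 was 2800 to 3738 CPM in proliferation, 32420 and 29540 CPM in WT differentiation and 37460 and 29030 CPM in YAP1 KO differentiation. Between genotypes in differentiation, 8 of the 17 were above 0 and 9 below, with a median log2 difference of -0.04. The summed astrocyte level thus overlapped between genotypes where the Gfap level did not, but this overlap depends on Sparcl1, the largest part of the sum. Sparcl1 stood at 7535 and 4313 CPM in WT and at 13180 and 4837 CPM in YAP1 KO differentiation. Gjb6 was the only marker of the list at 0 counts in a whole group, in both proliferation groups.

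Of 15 tested progenitor markers other than Nes, 4 rose and 4 fell in WT and 4 rose and 3 fell in YAP1 KO differentiation, with median log2 changes of -0.32 and 0.11. These counts lie near the shares of all tested genes (27.0% higher and 28.3% lower in WT, 25.1% and 26.7% in YAP1 KO cells). Lfng, a glycosyltransferase that modifies Notch, fell with Nes, from 245.3 and 221.9 CPM to 44.4 and 35.0 CPM in WT and from 226.3 and 213.5 CPM to 34.7 and 29.3 CPM without YAP1. Fabp7, a fatty acid-binding protein of radial glia, remained at 863.7 CPM or more in every library. Of 8 tested ependymal markers, 3 rose and 1 fell in WT and 3 rose and 2 fell in YAP1 KO differentiation, again near the shares of all tested genes, and none was called between genotypes. Foxj1, the regulator of motile cilia, stood at 51.3 and 63.3 CPM in WT and at 17.6 and 28.5 CPM in YAP1 KO differentiation, without overlap. Its log2 difference was -1.31 (edgeR adjusted p = 0.934), and 15.6% of all tested genes were lower without overlap in this comparison.

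Of 19 listed genes of reactive astrocytes, 14 were tested, and 8 rose and 1 fell in WT differentiation and 5 rose and 2 fell in YAP1 KO differentiation, where 27.0% and 28.3% of all tested genes did in WT and 25.1% and 26.7% in YAP1 KO cells. These counts do not show a difference between genotypes: DESeq2 called 9 of the listed genes in WT and 8 in YAP1 KO cells. In YAP1 KO against WT differentiation 14 of 14 log2 differences were below 0, with a median of -1.11 against 0.01 over all tested genes, and 10 of the 14 had no overlap between genotypes, where 15.6% of all tested genes were lower without overlap. In the same comparison 9 of 11 proliferation markers were below 0, 4 of them without overlap, and the median of the 11 was -0.66. The summed levels of the 11 overlapped (WT libraries 91.6 and 104.7 CPM, YAP1 KO libraries 97.5 and 98.5 CPM). Those sums were mostly Pcna (group means 68.41 CPM in WT and 72.55 CPM in YAP1 KO), which had a log2 difference of 0.08. Neuronal markers, mostly Map2 and with Stmn2 at 0 counts in both groups, had summed levels without overlap (WT differentiation 1623 and 1822 CPM, YAP1 KO differentiation 2025 and 2124 CPM). Oligodendrocyte markers also had summed levels without overlap, lower in YAP1 KO cells (WT differentiation 554.8 and 509.3 CPM, YAP1 KO differentiation 408.4 and 479.5 CPM). The part of these proliferation, neuronal and oligodendrocyte markers in the result was not tested. None of the reactive astrocyte genes was called by edgeR, and this list shares Osmr and Socs3 with the input genes. Cd109, a membrane protein that restrains TGF-beta signalling, stood at 286.6 and 360.1 CPM in WT and at 119.8 and 163.8 CPM in YAP1 KO differentiation, a log2 difference of -1.19 (edgeR adjusted p = 0.909). Gbp2, an interferon-induced GTPase, stood at 18.9 and 21.8 CPM against 10.1 and 8.83 CPM, a log2 difference of -1.10 (edgeR adjusted p = 0.934). The chemokine gene Cxcl10 stood at 1.52 and 0.590 CPM against 0.228 and 0.0535 CPM. Summed over the list, the WT differentiation libraries had 623.9 and 673.3 CPM and the YAP1 KO ones 348.3 and 361.7 CPM, with Cd109 the largest part. The sum was higher in proliferation, at 795.2 and 745.4 CPM in WT and at 894.9 and 866.6 CPM in YAP1 KO neurospheres. Cd109 was the largest part there too (group means 436.2 and 410.7 CPM). Between genotypes in differentiation, DESeq2 called Cd109 and no other gene of the list. Leaving out 1 library at a time, 13 or 14 of the 14 stayed below 0, and the median ran from -1.80 without YAP1 KO differentiation replicate 8 to -0.69 without WT differentiation replicate 8.

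**Figure D4:**
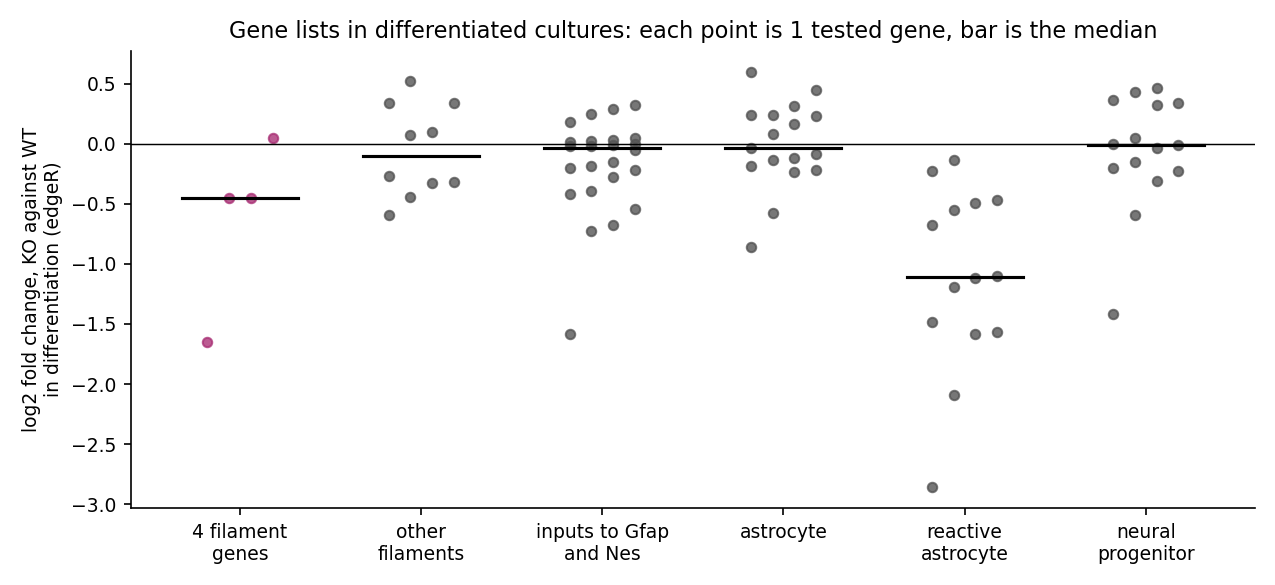
edgeR log2 fold change of YAP1 KO against WT in differentiation for each tested gene (points) of the 4 filament genes and of 5 other lists, with the median as a bar. The astrocyte list centres on -0.04, with 8 of 17 genes above 0, while all 14 reactive astrocyte genes lie below 0 with a median of -1.11.

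The genes whose pattern over the 8 libraries was most like each member were found by the root mean square (RMS) difference of centred log2 CPM among 10770 genes other than members with a mean of at least 5 CPM over the libraries. The 8 libraries fall into 2 conditions, which weigh on every correlation. For Gfap they were the water channel gene Aqp4 (RMS 1.66, Pearson r 0.984), the lipid carrier gene Apoe (1.78, r 0.982) and Shisa9, an AMPA receptor accessory gene (1.80, r 0.993). None came close in size. Aqp4 also differed between replicates, at 586.8 and 1712 CPM in WT and at 222.0 and 1314 CPM in YAP1 KO differentiation, and its replicate 8 was the higher in both genotypes, whereas Gfap was higher in replicate 7 of WT and in replicate 8 of YAP1 KO. For Nes they were Prim1, a primase subunit (RMS 0.150, r 0.994), Cdc7, a kinase that starts replication (0.151, r 0.994), and Trim16 (0.154, r 0.995). Prim1 stood at 47.3 to 50.9 CPM in proliferation and at 6.73 to 9.05 CPM in differentiation. For Vim they were Cdk17 (RMS 0.103, r 0.966), Wdr35 (0.126, r 0.918) and Ift80 (0.137, r 0.938), the last 2 encoding parts of the transport machinery of cilia. For Synm they were Ap5z1, Cbarp and Vps37c (RMS 0.111 to 0.131), a match that rests on few Synm counts.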

How the data were processed

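RNA was measured as stranded poly(A) libraries (dUTP method, DNBSEQ), per the labels' protocols. The deposited table holds the authors' estimated counts per gene (not normalised; 6.07% to 6.75% of values per library are not whole) and the authors' TPM values, plus the log2 fold changes and q-values of the authors' own comparisons, per the file headers. No aligner or counting tool is named in the labels or file headers. The submitters' processing notes name GRCm39, while 85.4% of 16878 genes matched by gene ID start where RefSeq GRCm38.p6 has them, so positions are given as GRCm38. Of 20 labelled samples 8 have columns and were analysed; 12 were not analysed here, and 12 per-library columns of 4 libraries that no label names were not used. The table's 1 empty line was dropped.

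Counts were rounded and genes filtered with filterByExpr, which kept 13046 (77.1%). The test was edgeR 4.0.16 (R 4.3.3; TMM, robust quasi-likelihood F-test, two-sided, 4 residual degrees of freedom) with 1 model over the 8 libraries, Benjamini-Hochberg adjustment over all tested genes and a threshold of 0.05. The fit was tested on simulated data. The design foresaw all 20 samples. CPM are TMM-scaled counts, with group means and SDs over 2 libraries. With 2 against 2 libraries an exact permutation test cannot go below p = 0.333, so none was run. Counting intervals (95%) are exact and cover counting error only. Alternatives were DESeq2 1.42.0, RLE scaling, library totals alone, no filter, limma-voom 3.58.1 with quality weights, a replicate block, only the groups compared, and each library left out.

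The 4 genes and all lists were chosen with earlier results of these data known. Genes named from a list were among the 3 tested ones with the smallest p in a comparison, and 3 nearest genes were named per member. Des, Nefl, Krt8, Gjb6, Fabp7, Map2, Pcna, Ptprc, Stmn2 and Ttc23 were named after their values were seen. Promoter sequences are from RefSeq, GRCm38.p6, where all 4 genes matched by symbol.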

Additional observations from a re-analysis of the deposited data

How the results depend on the processing

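The Gfap and Nes calls between conditions held in every alternative and with each library left out, with log2 values of 12.30 to 13.03 and 10.18 to 11.69 for Gfap and of -3.07 to -2.82 and -2.78 to -2.44 for Nes in WT and YAP1 KO cells. DESeq2 called Gfap in YAP1 KO against WT differentiation (-1.65, adjusted p = 0.0322), so 1 member of 4 was called there, and edgeR's adjusted p over its alternatives ran from 0.202 to 1. Vim in YAP1 KO cells between conditions passed under DESeq2 (-0.51), library totals alone (-0.56) and the replicate block (-0.51, adjusted p = 0.0232), and ran from -0.73 to -0.29 with a library left out. Genes called in YAP1 KO against WT proliferation were 1 by edgeR, 11 by DESeq2, 2 by limma-voom, 2 with the replicate block, 0 with only the groups compared, where Gfap was filtered out, and 0 with any library left out. In differentiation they were 0 by edgeR, 38 by DESeq2, 1 without the filter and 3 with the block. DESeq2 called 4 for the difference between KO effects and 20 for their average, where edgeR called 1, the block 4, and leaving out a library gave 0 to 1. Uncalled values that changed sign with a library left out were Gfap in YAP1 KO against WT proliferation (-0.48 to 0.25), Nes in differentiation (-0.13 to 0.21), Synm between conditions in YAP1 KO cells (-0.18 to 0.10), the Vim difference between KO effects (-0.37 to 0.06) and the averaged Synm effect (-0.16 to 0.02). The causes were not tested. Pools with GENCODE lengths moved the WT proliferation shares to 78.5% for Vim and 21.4% for Nes. The labels do not say what replicate numbers mark; same-numbered libraries deviated together (r 0.538 to 0.784 over 13046 genes) and the second principal component (10.7%) parted the numbers, with only 2 numbers. The block changed no other call of a member, it called Cd109 and Foxj1 between genotypes in differentiation, and Gfap with it stood at -1.83 (adjusted p = 0.236) in YAP1 KO against WT differentiation. All 14 reactive genes stayed below 0 in every fit with all 8 libraries; this count was added after the data were seen, and with a library left out it ran from 13 to 14. Scaling shifted the median of all genes by 0.03 at most. Depth limits Gfap in proliferation and Synm throughout.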
